A study of Mus musculus with 14 samples.

Results

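The 10 genes described here present antigen on major histocompatibility complex (MHC) molecules, and they are 10 of the 21440 protein-coding genes for which a start could be placed. They were chosen by name. The 6 class I genes were H2-K1, H2-D1, B2m, Tap1, Tapbp, and Nlrc5, and the 4 class II genes were H2-Aa, H2-Ab1, Cd74, and Ciita. A gene counted as called in a library when a peak of that library's list lay within 1 kb of the gene start on either side. Its values were those of the strongest such peak.

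The mark was trimethylation of histone H3 at lysine 4 (H3K4me3), which sits at the starts of genes that are transcribed or poised. It was mapped by CUT&Tag, the assay named in the protocol and antibody labels and in the methods, although the sample titles read CUT&RUN. In CUT&Tag an antibody brings a transposase to the mark, and the fragments it cuts out are sequenced. The cells were LSK cells (Lin-Sca1+cKit+), the bone marrow fraction that holds HSPCs, sorted from tibias and femurs after magnetic enrichment. HFD-LSK came from male C57BL/6J mice on a high-fat diet (HFD, 60% kcal from fat) and LFD-LSK from mice of the same sex and strain on a low-fat diet (LFD, 10% kcal from fat). The mice were bought at 3-4 weeks of age and fed for 16-20 weeks. The labels give no genotype or further treatment for either group. There was 1 peak list for each of 3 HFD-LSK libraries and 4 LFD-LSK libraries, and no list for the 7 matched IgG libraries. Nothing in the labels says which mice, or how many, gave each library, so the p-values below measure the spread between libraries, which may be technical. The study added a second cohort of LSK cells, and its own comparison took account of batch and pairing. The labels do not give a library's cohort, so cohort could not be entered and its part was not tested.

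MHC class I molecules are carried by almost every nucleated cell and show peptides from inside the cell to CD8+ T cells. A heavy chain, such as those encoded by H2-K1 and H2-D1, pairs with the light chain beta-2 microglobulin, encoded by B2m. Tap1 encodes a subunit of the transporter that brings peptides into the endoplasmic reticulum, and Tapbp encodes tapasin, which holds the empty heavy chain at that transporter. Class II molecules show peptides from outside the cell to CD4+ T cells and are made mainly by B cells, dendritic cells, and macrophages. H2-Aa and H2-Ab1 encode the alpha and beta chains of I-A, and Cd74 encodes the invariant chain that fills its groove during assembly. Nlrc5 and Ciita encode the coactivators of the class I and class II genes. Neither binds DNA on its own, and both are recruited to a promoter module that includes an X2 box of the cAMP response element type and a Y box with the letters CCAAT.

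The DNA before the starts is shown for 3 class I genes with calls and for H2-Aa, a class II gene without one, because their windows held similarly spaced motifs. Sequences are the 250 bases before a start, 5′ to 3′ on the gene's strand, from a RefSeq promoter table of GRCm38.p6, which matched 6 of the 10 genes. Capitals mark TGACG (the core of a cAMP response element), CCAAT, GGGGATTCC (the center of an NF-kB site), and GAAANNGAA (from the core of an interferon-stimulated response element), each read on both strands. In H2-Aa the capitals TGACGTCA hold overlapping copies of TGACG on the 2 strands. H2-K1 lies at chr17:34000334-34000583 on the minus strand, H2-D1 at chr17:35262844-35263093 on the plus strand, B2m at chr2:122147437-122147686 on the plus strand, and H2-Aa at chr17:34287824-34288073 on the minus strand.
H2-K1: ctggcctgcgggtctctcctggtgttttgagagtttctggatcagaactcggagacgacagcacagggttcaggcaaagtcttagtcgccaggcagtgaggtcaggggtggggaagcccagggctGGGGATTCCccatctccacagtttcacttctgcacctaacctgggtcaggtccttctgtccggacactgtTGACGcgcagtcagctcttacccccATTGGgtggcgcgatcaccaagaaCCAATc
H2-D1: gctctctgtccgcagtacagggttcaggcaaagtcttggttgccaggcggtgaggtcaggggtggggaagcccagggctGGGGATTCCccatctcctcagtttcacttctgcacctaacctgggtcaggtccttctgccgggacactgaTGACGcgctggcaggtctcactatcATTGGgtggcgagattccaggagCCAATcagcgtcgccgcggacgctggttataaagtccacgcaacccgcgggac
B2m: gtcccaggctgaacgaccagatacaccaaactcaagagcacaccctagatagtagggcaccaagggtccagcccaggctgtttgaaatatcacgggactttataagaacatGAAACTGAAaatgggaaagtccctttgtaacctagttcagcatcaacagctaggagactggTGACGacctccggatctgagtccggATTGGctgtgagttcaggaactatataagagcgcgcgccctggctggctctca
H2-Aa: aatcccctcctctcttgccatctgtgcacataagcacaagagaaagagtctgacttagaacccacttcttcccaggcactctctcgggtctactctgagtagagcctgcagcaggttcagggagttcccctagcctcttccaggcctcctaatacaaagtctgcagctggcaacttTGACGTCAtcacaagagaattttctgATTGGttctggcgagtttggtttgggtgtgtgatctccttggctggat

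TGACG was followed by ATTGG, the reverse complement of CCAAT, after 20 bases in H2-K1, H2-D1, and B2m and after 21 bases in H2-Aa. Windows with these letters at either spacing, on either strand, made up 0.206% of the windows of 17492 protein-coding genes, or 36 genes. The spacing was chosen after these 4 windows had been read. Of those 36 genes, 16 were called in all 7 lists and 7, H2-Aa among them, in no list. Of all 17492 genes with a window, 20.4% were called in all lists and 48.9% in none. The 4 genes that set the spacing are among the 36, so the counts are not independent of that choice. The windows of Tap1 and Tapbp did not hold this arrangement. GGGGATTCC was found in H2-K1 and H2-D1 and in 0.252% of all windows, and GAAANNGAA was found in B2m and in 6.93% of all windows. Only these exact letters were searched, so a window without them may still hold another form of the element. TGACG alone was in 20.3% and CCAAT alone in 36.3%.

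H2-Aa, the only class II gene with a window, had fewer CpG dinucleotides than the class I genes. It had 3 in 250 bases, whereas the 5 class I genes with a window had from 8 (B2m) to 14 (H2-D1 and Tap1). Among all protein-coding windows the median was 10. Of the 5202 genes with at most 3 CpG, 92.0% were called in no list, compared with 21.6% of the 9766 genes with at least 8 and 48.9% of all genes with a window. The limits of 3 and 8 were the counts of H2-Aa and B2m. What part CpG content had in the calls of either class was not tested. H2-K1 and H2-D1 shared a run of 47 identical bases, and the class I heavy chain genes form a family of near-identical copies. How reads that align to more than 1 copy were assigned is not given in the sources used here, so values at H2-K1 and H2-D1 are uncertain to that extent.

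Across the 7 lists, class I starts carried peaks and class II starts mostly did not. All 6 class I genes were called in each HFD-LSK list, and 4, 6, 6, and 5 of them in LFD-LSK replicates 1, 2, 3, and 4. Of the 4 class II genes, HFD-LSK replicates 1 to 3 had 1, 1, and 0 called, and LFD-LSK replicates 1 to 4 had 0, 1, 1, and 1. The gene called was H2-Ab1 each time. The share of class I starts called exceeded the share of class II starts by a mean of 75 ± 12.7 percentage points over the lists (SD, n = 7), and it was the larger share in 7 of 7 lists. Genes of a class are not replicates of it, so the contrast was given no test. In a bulk library, fewer cells with the mark and less of it per cell cannot be told apart.

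**Figure D1:**
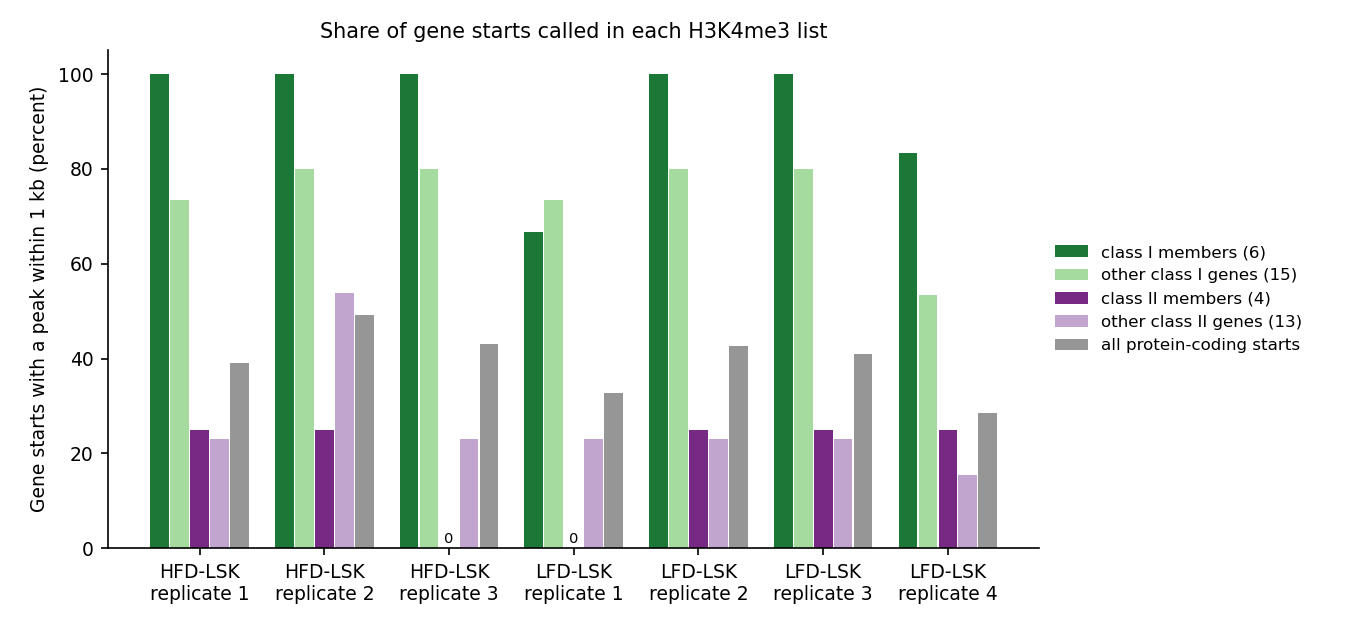
Percent of gene starts with an H3K4me3 peak within 1 kb (y axis) in each of the 7 lists (x axis), as bars for the class I and class II genes, for 2 lists of other genes of the same pathways, and for all protein-coding starts. Class I bars stand at 66.7 to 100% and class II bars at 0 to 25%, with all protein-coding starts at 28.5 to 49.2%.

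H2-K1, B2m, and Tap1 were called in all 7 lists, as were 20.2% of protein-coding starts. H2-D1 and Nlrc5 were called in 6 lists, both missing from LFD-LSK replicate 1, and Tapbp in 6, missing from LFD-LSK replicate 4. Of protein-coding starts, 12.3% were called in 6 lists. H2-Ab1 was called in 5 lists, as were 5.68% of protein-coding starts. H2-Aa, Cd74, and Ciita were called in no list, as were 48.7% of protein-coding starts. A start without a call may still carry the mark, because the summits of the lists had at least 4 to 21 fragments, as inferred from the deposited values, and LFD-LSK replicate 1 had the highest of these floors.

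No gene of the set was called in 1 diet and in no list of the other. H2-D1, Tapbp, and Nlrc5 were called in every HFD-LSK list and in 3 of the 4 LFD-LSK lists, and a higher share in HFD-LSK was also found for 50.4% of the 10997 protein-coding starts called in at least 1 list, which is 51.3% of all such starts. H2-Ab1 had the larger share in LFD-LSK (3 of 4 against 2 of 3 lists), as did 10.2% of those starts. Called starts in all 3 HFD-LSK and no LFD-LSK list made up 0.3% of them. Fisher's exact test gave p = 1 for each of the 7 genes with a call (two-sided, Benjamini-Hochberg adjusted p = 1 over the 10997 starts), and the lowest adjusted p over all of these starts was 1. Even a start called in all 3 HFD-LSK and no LFD-LSK lists had p = 0.0286 (Fisher's exact test, two-sided). No start could therefore pass the adjustment by itself. The mean number of genes called per list was 6.67 ± 0.577 for HFD-LSK (SD, n = 3) against 6 ± 1.41 for LFD-LSK (SD, n = 4). The HFD-LSK excess was 0.667. It was 0 without LFD-LSK replicate 1, 0.333 with the same number of peaks from each list, and -0.333 without LFD-LSK replicates 1 and 4, the libraries with the shortest lists.

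The lists themselves differed in length. The HFD-LSK lists held 9186, 13094, and 11977 peaks and the LFD-LSK lists 7447, 10572, 10352, and 6921. Ranks by fold enrichment within a list (1 is the strongest) were therefore also given as a percent of the list, since a rank can be larger in a longer list. Of the 4332 protein-coding starts called in all 7 lists, 64.9% had a mean rank farther from the top in HFD-LSK, and 92.5% had a wider mean peak there. Among markers, 5 of 9 LSK genes, Kit, Gata2, Meis1, Mecom, and Cd34, were called in all 7 lists, beside 20.2% of protein-coding starts. Ly6a, which encodes the sorting antigen Sca-1, was called in none. Calls at markers of other cells were few, but 48.7% of all protein-coding starts also had no call in any list. With so few markers these counts do not measure the purity of the cells, which was not tested. None of 4 T and NK cell, 4 myeloid, or 5 dendritic cell genes was called in any list, 1 of 5 B cell genes (Cd79b) was called in 3 lists, and the erythroid gene Klf1 was called in 5 lists. Peaks elsewhere in a gene or within 1 kb of its ends did not count as calls. Such peaks were present in 6 lists at Zbtb46 and in 5 at Xcr1, both dendritic cell genes. They were present in 4 lists at Cd79a, 2 at Cd4, and 1 at Pax5. Of the 3 lists with Cd79b, HFD-LSK replicate 2 and LFD-LSK replicate 3 also had a call at H2-Ab1 and HFD-LSK replicate 3 did not. The part of B cells in the H2-Ab1 peak was not tested.

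**Figure D2:**
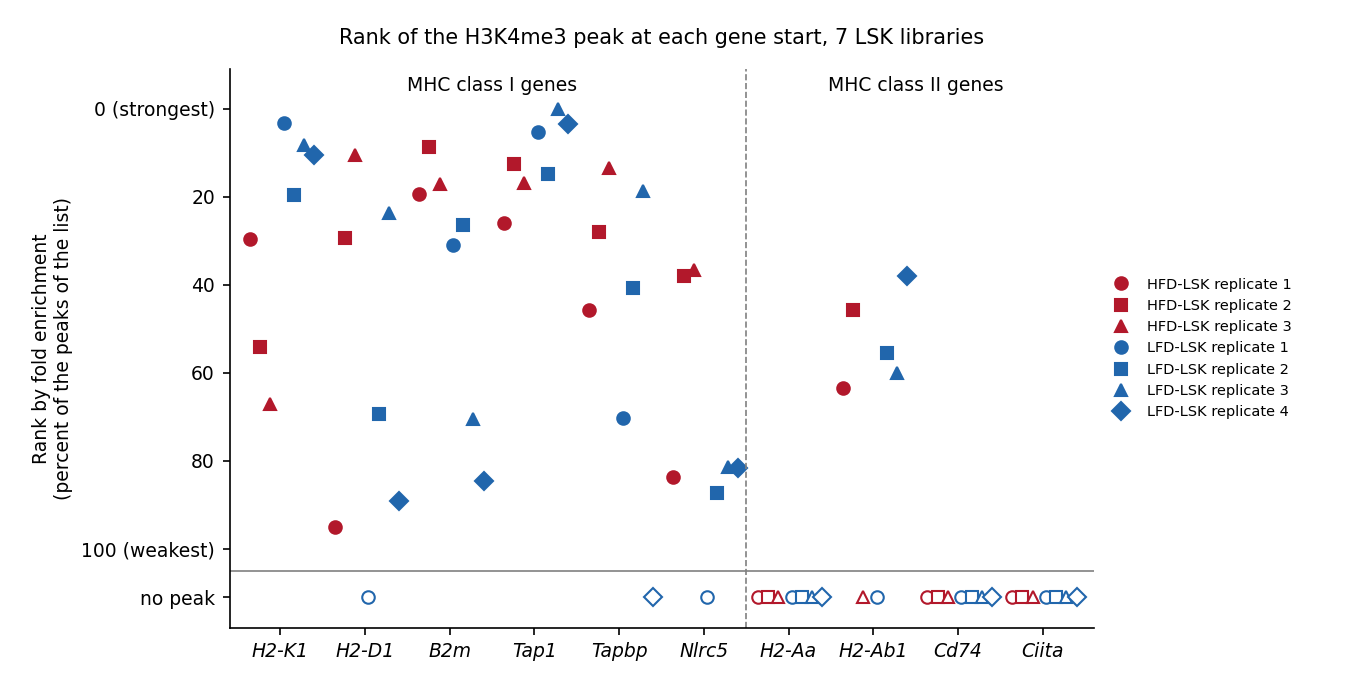
Rank of the strongest peak at each gene start as a percent of the peaks in its list (y axis, 0 is the strongest) for the 10 genes (x axis), with a filled point for each library and open points in the lower band where no peak was called. Tap1 points lie between 0.193 and 26.0% in all 7 libraries, and H2-Aa, Cd74, and Ciita have open points only.

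H2-K1, a class I heavy chain gene at chr17:33996012-34000619 on the minus strand, ranked nearer the top in LFD-LSK. HFD-LSK replicates 1 to 3 ranked it at 2724, 7079, and 8038, and LFD-LSK replicates 1 to 4 ranked it at 245.5, 2071, 851, and 737. As a percent of the list they were 29.7, 54.1, and 67.1 in HFD-LSK and 3.30, 19.6, 8.22, and 10.6 in LFD-LSK. The diets did not overlap on either scale. The mean was 50.3 ± 19.0% for HFD-LSK (SD, n = 3) against 10.4 ± 6.82% for LFD-LSK (SD, n = 4). The difference of mean ranks, 4971, gave p = 0.0286, the smallest p that 3 against 4 libraries allow (exact permutation test, two-sided), and the Benjamini-Hochberg adjusted p over 4332 starts was 0.746. It was the 1 gene of the 3 tested with an unadjusted p under 0.05, which 3.83% of the 4332 starts reached in either direction and 3.55% in the same direction, and 4.39% ranked farther from the top in every HFD-LSK than in every LFD-LSK list, or 1.62% as a percent of the list. The adjusted p was not under 0.05 for any start. With 166 starts at the smallest possible p, the lowest adjusted p was 0.746 (exact permutation test, two-sided). The adjustment therefore could not single out a gene with this number of libraries.

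The background at the summit of H2-K1 also differed between libraries. Fold enrichment divides the fragments at the summit by the background that MACS2 estimated there, and both were recovered from the deposited fold and p. Relative to the lowest background of its own list, that of H2-K1 was 17.7 times in HFD-LSK replicate 2 and 18.9 times in replicate 3, compared with 1.41 times in HFD-LSK replicate 1 and 1.00 to 1.06 times in the LFD-LSK libraries. Of the peaks in those 2 HFD-LSK lists, 95.0% and 75.2% had a lower background than H2-K1. The median background of all peaks was 0.270 in HFD-LSK replicate 2, near that list's lowest of 0.268. In HFD-LSK replicate 3 it was 1.10 and the lowest was 0.116, so a large multiple was common there. H2-K1 had 4.75 in HFD-LSK replicate 2 and 2.19 in replicate 3. These backgrounds rose in steps. Tap1 had 2.38 in HFD-LSK replicate 2, and in replicate 3 it had 3.29, above the 2.19 of H2-K1 and the median of 1.10. A large multiple may therefore rest on few background fragments, whose number was not recovered. Fragments at the summit were 50, 89, and 19 in HFD-LSK and 87, 41, 31, and 30 in LFD-LSK. When peaks were ranked by fragments, H2-K1 stood at 34.0, 4.94, and 33.4% of the HFD-LSK lists and at 4.31, 31.0, 10.1, and 13.6% of the LFD-LSK lists, so that the diets overlapped. The difference of mean ranks by fragments was 1195 (p = 0.314, exact permutation test, two-sided). In HFD-LSK replicate 1, where the background was 1.41 times the lowest, the fold rank stood at 29.7% of the list. What part the background had in the fold ranks of H2-K1 or of the other genes was not tested.

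B2m, which encodes the class I light chain at chr2:122147687-122153082 on the plus strand, lay the other way. Its ranks were 1783, 1140, and 2046.5 in HFD-LSK and 2302.5, 2793.5, 7303.5, and 5860 in LFD-LSK. Every HFD-LSK library ranked it nearer the top than every LFD-LSK library, as was the case for 1.27% of the 4332 starts by rank and for 3.3% as a percent of the list. As a percent of the list it stood at 15.1 ± 5.63 for HFD-LSK (SD, n = 3) against 53.1 ± 28.9 for LFD-LSK (SD, n = 4), where replicates 3 and 4 stood at 70.6 and 84.7 and replicates 1 and 2 at 30.9 and 26.4. The difference of mean ranks was -2908 (p = 0.143, adjusted p = 0.806, exact permutation test, two-sided), so it did not pass the threshold although the diets did not overlap. By fragments the difference was -2646 (p = 0.114, exact permutation test, two-sided), with LFD-LSK replicate 1 among the HFD-LSK values in rank but not as a percent of the list.

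Tap1, at chr17:34187556-34197225 on the plus strand, had the most fragments at its summit of the 10 genes in each of the 7 lists. Psmb9, an immunoproteasome gene on the other strand, starts 226 bp before the start of Tap1, and the same peak covered both starts in every list, so the values belong to either gene. Fold ranks were 2391, 1634, and 2022.5 in HFD-LSK and 399, 1564, 20, and 238.5 in LFD-LSK. The diets did not overlap in rank, and the difference of 1460 gave p = 0.0571 (adjusted p = 0.792, exact permutation test, two-sided). As a percent of the list they did overlap, at 26.0, 12.5, and 16.9 in HFD-LSK and 5.36, 14.8, 0.193, and 3.45 in LFD-LSK (p = 0.0857, exact permutation test, two-sided). By −log10 p the difference of mean ranks was 332 (p = 0.714, exact permutation test, two-sided). Fragments at the summit were 103, 119, and 49 in HFD-LSK and 104, 88, 49, and 36 in LFD-LSK. Ranked by them, Tap1 stood at 57.5, 60.5, and 3 in HFD-LSK and at 73.5, 30, 25.5, and 354 in LFD-LSK, within the first 1% of 6 of the 7 lists. The difference was then -80.4 (p = 0.657, exact permutation test, two-sided). The background at its summit was 8.86 to 28.4 times the lowest of the list in the 3 HFD-LSK libraries and 13.3 and 18.6 times in LFD-LSK replicates 1 and 2. It was at the lowest value in LFD-LSK replicates 3 and 4, the libraries in which the fold rank was nearest the top.

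**Figure D3:**
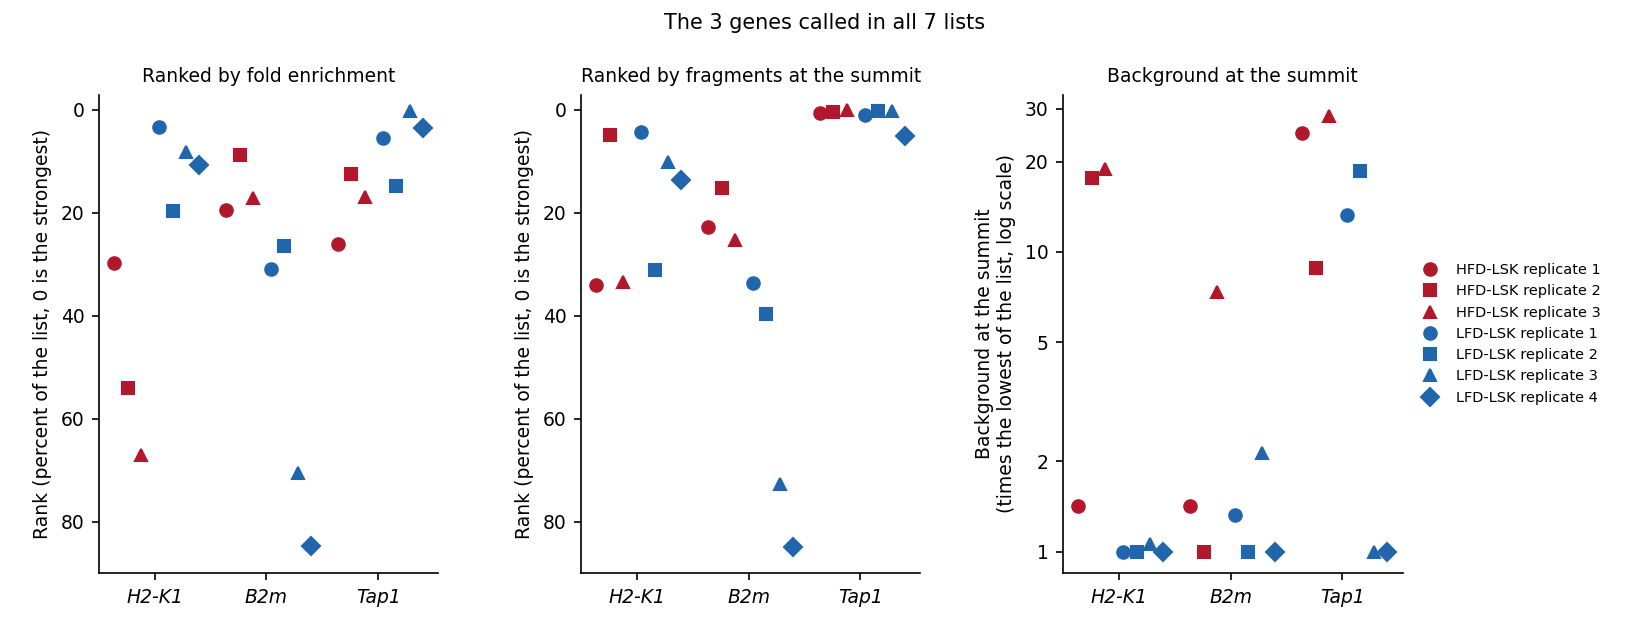
H2-K1, B2m, and Tap1 in each library, ranked by fold enrichment (left) and by fragments at the summit (middle), as a percent of the list with 0 as the strongest, and the background at the summit relative to the lowest of the list on a log axis (right). The diets are apart for H2-K1 on the left and mixed in the middle, and the H2-K1 points of HFD-LSK replicates 2 and 3 stand at 17.7 and 18.9 on the right.

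The other class I genes were called in 6 lists each, so their ranks were tested only with the list without a call placed below its last peak. The differences of mean ranks were then -1944 for H2-D1 (p = 0.457), -2209 for Tapbp (p = 0.343), and -2708 for Nlrc5 (p = 0.143, exact permutation tests, two-sided). H2-D1, the second heavy chain gene, at chr17:35263094-35267497 on the plus strand, ranked at 95.0, 29.5, and 10.5% of the HFD-LSK lists and at 69.3, 23.8, and 89.1% of the lists of LFD-LSK replicates 2, 3, and 4. The diets overlapped over most of this range. Its background was 25.0 times the lowest of the list in HFD-LSK replicate 1, where it ranked lowest. In LFD-LSK replicate 1, the nearest peak lay 20638 bp from its start. In LFD-LSK replicates 2 and 4 its signal was split into separate peaks on either side of a gap.

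Tapbp, at chr17:33919478-33929290 on the plus strand, ranked at 45.7, 28.1, and 13.6% in HFD-LSK and at 70.4, 40.8, and 18.7% in LFD-LSK replicates 1, 2, and 3, so that the diets overlapped. Nlrc5, the coactivator gene at chr8:94434335-94527272 on the plus strand, ranked at 83.8, 38.1, and 36.7% in HFD-LSK and at 87.4, 81.4, and 81.6% in LFD-LSK replicates 2, 3, and 4. HFD-LSK replicate 1 stood among the LFD-LSK values. With 15.5 fragments at its median summit, Nlrc5 had the fewest of the class I genes. A noncoding gene on the other strand, 9330175E14Rik, starts 768 bp after the start of Nlrc5.

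H2-Ab1 was the class II gene with a peak, and the peak was not centered on the start. The gene lies at chr17:34263227-34269418 on the plus strand. HFD-LSK replicates 1 and 2 ranked it at 5833 and 5979.5, and LFD-LSK replicates 2 to 4 at 5861, 6228, and 2637, which is 38.1 to 63.5% of the list, with the diets overlapping. In the 5 lists, 4, 5, 4, 4, and 2 class I genes ranked nearer the top than H2-Ab1. The summits given next are those of the strongest peak that reached into the window. They lay 1657, 1507, and 1613 bp after the start in HFD-LSK replicates 1 and 2 and LFD-LSK replicate 2. In LFD-LSK replicates 3 and 4 they lay 100 and 194 bp after it. HFD-LSK replicate 3, without a call, had a peak from 1030 to 2010 bp after the start, just outside the window. LFD-LSK replicates 3 and 4 had a further peak there, from 1164 to 1965 bp and from 1463 to 2014 bp. In LFD-LSK replicate 3 this further peak was the stronger, at rank 3701 against 6228 for the peak in the window. In LFD-LSK replicate 4 it was the weaker, at rank 4201 against 2637. A peak thus covered the stretch from 1463 to 1965 bp after the start in 6 of 7 lists, and LFD-LSK replicate 1 had its nearest peak 57197 bp away.

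**Figure D4:**
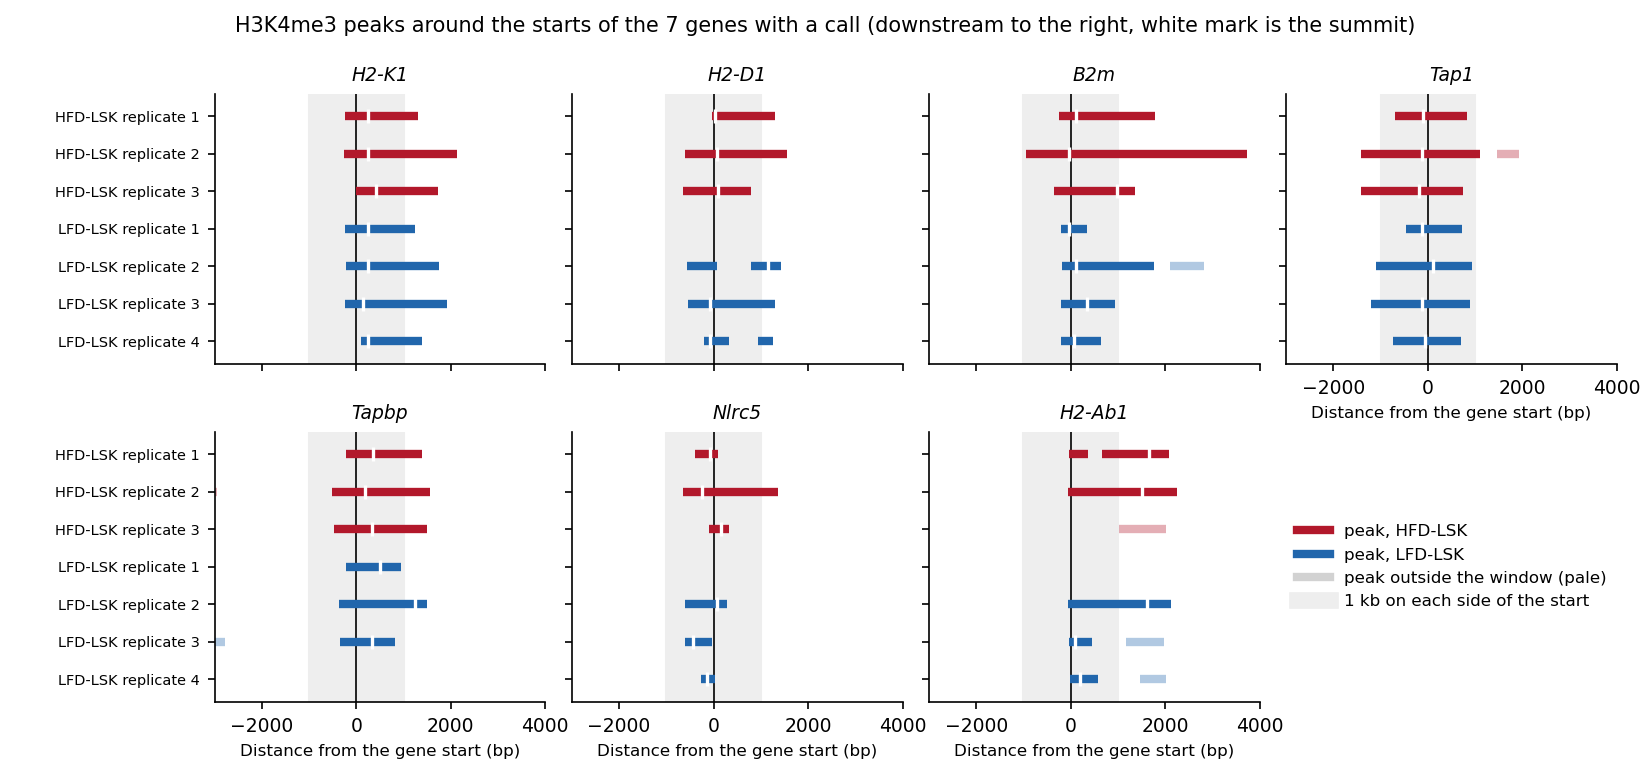
Peaks around the starts of the 7 genes with a call, 1 row per library, against distance from the gene start in bp (x axis, downstream to the right). The window of 1 kb on each side is shaded, and a white mark shows the summit of the strongest peak that reached into it. H2-K1 summits lie 152 to 416 bp after the start, Tap1 summits between -184 and 96 bp, and H2-Ab1 shows signal beyond 1030 bp in HFD-LSK replicate 3 without a call in the window.

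For the 3 class II genes without a call, peaks were far from the start. The nearest peak to H2-Aa, at chr17:34282744-34287823 on the minus strand, was 21530 to 81793 bp away in the 7 lists. For Cd74, on chromosome 18, it was 27599 to 29196 bp away. For Ciita, at chr16:10480014-10531064 on the plus strand, it was 9764 bp downstream, inside the gene, in HFD-LSK replicate 2. In the other 6 lists it was at least 61219 bp away. Calls were read at the outermost annotated start of a gene, so a peak at a start outside that window was not counted. No list had a call at Ciita, whereas 6 of 7 had a call at Nlrc5, its class I counterpart.

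The width of a peak moved with its library. The median width at called protein-coding starts was 924, 1347, and 873 bp in HFD-LSK and 780, 1044, 892, and 565 bp in LFD-LSK. H2-K1 peaks were 1550, 2386, and 1732 bp wide in HFD-LSK and 1469, 1983, 2152, and 1298 bp in LFD-LSK, which is wider than 88.1 to 97.1% of the peaks of their lists. The HFD-LSK minus LFD-LSK difference was 164 bp (p = 0.6, adjusted p = 0.80, exact permutation test, two-sided). Tap1 peaks ranged from 1181 to 2531 bp, and the difference of 380 bp gave p = 0.343 (adjusted p = 0.725, exact permutation test, two-sided).

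B2m peaks were 2035, 4694, and 1727 bp wide in HFD-LSK and 556, 1946, 1144, and 855 bp in LFD-LSK. The 4694 bp peak of HFD-LSK replicate 2 was the widest in the set and spanned -957 to 3736 bp relative to the start. LFD-LSK replicate 2 lay within the HFD-LSK range, whereas 6.69% of the 4332 starts were wider in every HFD-LSK than in every LFD-LSK list. The difference of 1693 bp gave p = 0.0857 (adjusted p = 0.713, exact permutation test, two-sided). Without HFD-LSK replicate 2 the difference was 756 bp. Of the 4332 starts, 3.69% had a width p under 0.05, and none had an adjusted p under 0.05. The smallest possible p limited this adjustment as it did for the ranks. Among the class I genes Nlrc5 had the narrowest peaks, with a median of 536.5 bp, and H2-Ab1 peaks ranged from 474 to 2323 bp.

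**Figure D5:**
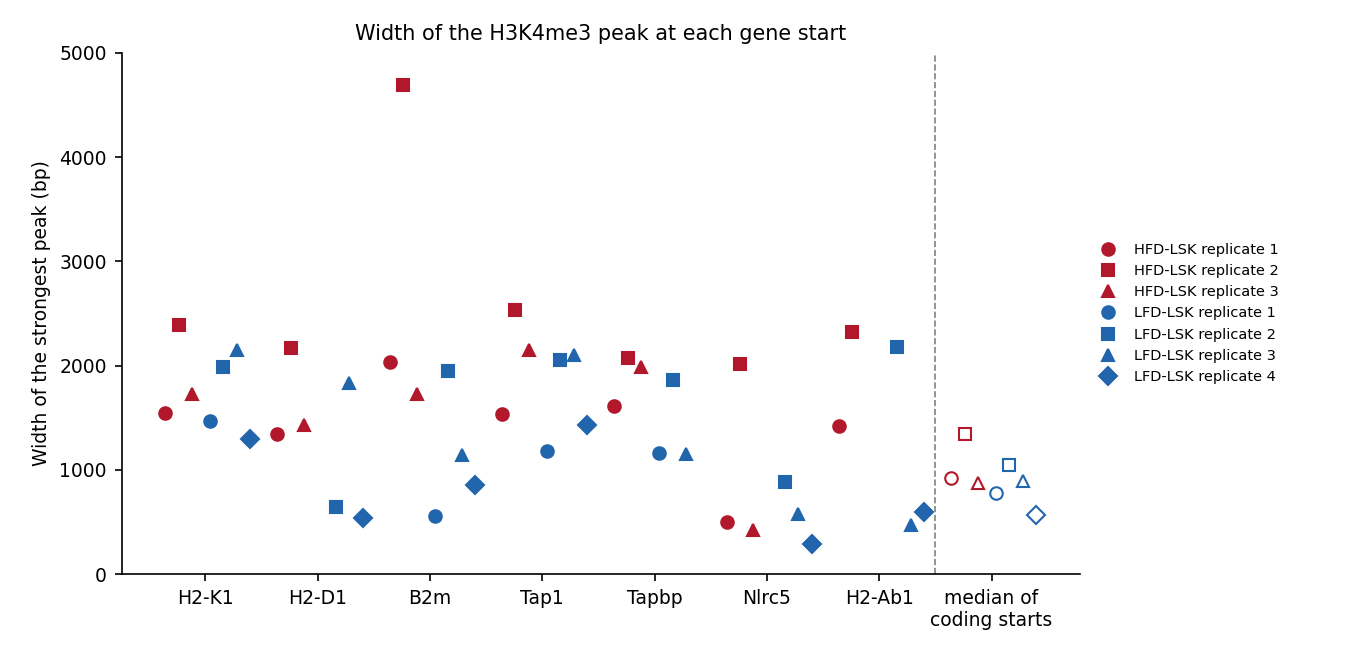
Width in bp of the strongest peak at each of the 7 gene starts with a call (y axis), with a point for each library, and open points for the median width at all called protein-coding starts of the same library. The B2m peak of HFD-LSK replicate 2 stands at 4694 bp, and all H2-K1 and Tap1 points lie above the open points of their own libraries.

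Other genes of the pathways were counted beside all protein-coding starts, of which 20.2% were called in all 7 lists and 48.7% in none. Of 15 other class I genes, 8 were called in all 7 lists, 4 in some, and 3 in none, and 8 to 12 were called per list. The 3 without a call were H2-Q4, H2-Q6, and H2-Q7, heavy chain genes of the Q region. The strongest of the 15 by mean rank was Psmb9, through the peak it shares with Tap1 (mean rank 1181), and the weakest was H2-T23, a nonclassical heavy chain gene, called in 6 lists (mean rank 7586). Of 13 other class II genes, 2 were called in all 7 lists, 5 in some, and 6 in none, and 2 to 7 were called per list. The shares called in all lists and in none were close to those over all protein-coding starts. H2-DMb1, H2-Oa, H2-Ob, and Lgmn were each called in HFD-LSK replicate 2, the longest list, and in no other. H2-Eb1 and H2-DMb2, which encode a class II beta chain and a chain of the peptide exchanger H2-DM, were called in none, as were Rfx5, a subunit of the complex that binds the X box, the lysosomal enzyme genes Ctss and Ifi30, and the ubiquitin ligase gene Marchf1. At Rfx5, 6 lists had a peak elsewhere in the gene or within 1 kb of its ends, which did not count as a call.

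The 2 class II pathway genes called in all 7 lists were Rfxap and H2-DMa. Rfxap, another subunit of the X box complex, ranked strongest by mean rank (1982). The H2-DMa peak also covered the start of Brd2 in at least 1 list, so those calls cannot be told apart from those of that gene. H2-Ob, which encodes the beta chain of the exchanger's inhibitor, ranked weakest (12778.5), through its peak in HFD-LSK replicate 2. No gene in either list was called in all libraries of 1 diet and none of the other, and none had an unadjusted p under 0.05 for rank. The median difference of mean ranks was 666 for the 8 class I genes and 2090 for the 2 class II genes that could be ranked in every list, beside 698 for all 4332 starts. Of these, 3 of the 8 class I genes and neither of the class II genes stood nearer the top in HFD-LSK by mean rank, as did 35.1% of the 4332 starts.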

How the data were processed

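H3K4me3 was measured by CUT&Tag in 7 LSK libraries, 3 HFD-LSK and 4 LFD-LSK, grouped by the diet and replicate number in their labels. The authors deposited 1 MACS2 narrow peak list per library. The values deposited with every peak are a fold enrichment (the summit divided by the background that MACS2 estimated for it, a ratio), a −log10 p-value, a −log10 q-value, and a score equal to the −log10 p times 10. The lists do not say which library that background was estimated from. The submitters' processing notes name Trim Galore, Bowtie2, Picard, MACS2, bedtools, HOMER, featureCounts, and the build GRCm38, without versions. The paper's methods name the nf-core cutandrun pipeline (version 3.1), GRCm39, SEACR, and DESeq2, so the deposited lists are not the peaks those methods describe. Coordinates were read as GRCm38. The lists start at a p of 1e-05 and give no depth.

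The 10 genes, the lists of other pathway genes, and the markers were chosen with earlier results of these data known. The result of 1 marker gene is not reported here. Named from those lists were genes called in no list, genes called in every list of 1 diet and none of the other, genes with an unadjusted p under 0.05, and the strongest and weakest by mean rank. Those called in every list of the class II pathway, and the marker genes with calls or with peaks elsewhere in the gene, were named after their values were seen. Gene starts were read from RefSeq annotation (GRCm38.p6), with strands from the RefSeq promoter table or, by symbol and chromosome, from GENCODE, which gave a start to 98.0% of protein-coding genes. For H2-K1 the promoter table puts starts 272 and 286 bp after the start of the gene table, and the sequence before the latter is shown.

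Calls were compared by Fisher's exact test, and ranks and widths by an exact permutation test over the 7 libraries (35 arrangements), with Benjamini-Hochberg adjustment over all protein-coding starts tested. Fold, p, and q depend on the library and were not compared as levels. Fragments and background at each summit were inferred by inverting the MACS2 formulas with its pseudocount of 1, and 1 solution fitted each peak of the 10 genes. Over all peaks of a list, 0.386% (LFD-LSK replicate 3) to 11.5% (LFD-LSK replicate 1) had more than 1 solution. Ranks by fragments are approximate to that extent. Analyses used Python 3.11.15, numpy 2.4.6, scipy 1.17.1, and pandas 2.3.3, and were tested on simulated lists. Alternatives were a −log10 q of at least 5, equal list lengths, windows of 500 bp and 3 kb, summits in place of peaks, ranks by −log10 p, by fragments, as a percent of the list, or among shared starts, lists without a call ranked last, summed widths, structural genes alone, all genes in place of protein-coding genes, each library left out, the 2 LFD-LSK libraries with the shortest lists left out, and replicate pairing. Ranks by fragments and leaving out those 2 libraries were chosen after seeing the data.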

Additional observations from a re-analysis of the deposited data

How the results depend on the processing

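The excess of class I over class II calls held its direction under every alternative run for it, from 65.5 percentage points at a −log10 q of at least 5 to 77.8. Equal list lengths, the 500 bp window, summits in place of peaks, and leaving out LFD-LSK replicates 1 and 4 together were not run for it. Ranks by −log10 p or by fragments cannot change which starts are called, so those runs could not alter it. The rank difference of H2-K1 kept p = 0.0286 (exact permutation test, two-sided) under ranks by −log10 p, percent of the list, shared starts, the wider window, and the stricter q, where B2m could not be ranked because its −log10 q in LFD-LSK replicate 4 was 4.76. In the same test it was 1195 (exact p = 0.314) by fragments and 4486 (exact p = 0.2) without LFD-LSK replicates 1 and 4, where 0.1 is the smallest p possible. The number of the 10 genes with a rank p under 0.05, 1 as reported, was then 0 in both cases. By fragments the Tap1 rank difference reversed to -80.4. Without LFD-LSK replicates 1 and 4 the width differences of H2-K1 and Tap1 reversed to -178 and -4.5 bp.

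Leaving out 1 library at a time gave no gene of the set a p under 0.05 (0 to 0 genes), since 0.0667 or 0.1 was then the smallest p possible. The H2-K1 rank difference ranged from 3925 to 6582, and its width difference from -84.5 bp without HFD-LSK replicate 2 to 333.5 bp. Protein-coding starts called in all HFD-LSK and no LFD-LSK lists, 33 as reported, ranged from 34 to 317, the highest without HFD-LSK replicate 1. Those called in all LFD-LSK and no HFD-LSK lists, 0 as reported, ranged from 0 to 23, the highest without HFD-LSK replicate 2. Starts ranked nearer the top in every HFD-LSK list, 55 as reported, ranged from 100 to 276, and those ranked farther, 190 as reported, from 318 to 603. In these counts fewer libraries have to be separated.

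Starts called in all HFD-LSK and no LFD-LSK lists numbered 67 at a −log10 q of at least 5 and 63 without LFD-LSK replicates 1 and 4, where 7 were called in all LFD-LSK and no HFD-LSK lists. With ranks as a percent of the list, 143 starts were nearer the top in every HFD-LSK list and 70 farther. By fragments 84 were nearer. The split between nearer and farther thus turned with the scaling for list length.

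With the replicate block, which pairs libraries of the same number, 0 genes had a rank p under 0.05, and the H2-K1 rank difference was 4891 with p = 0.25, the smallest that 3 pairs allow (exact sign-flip test, two-sided). The deviations of same-numbered libraries from their group means correlated at 0.0729, 0.0183, and -0.0120 across starts for the 3 pairs. Pairs of unlike number correlated at -0.0766 to 0.0886, so the same-numbered pairs did not stand out. Deviations from a mean of so few libraries depend on each other, so this check could miss a pairing. The cohorts behind the libraries are not in the labels. Depth is not given in the lists, and a start whose summit lay under the fewest fragments of its list, 4 to 21, could not be seen.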
